A study of Mus musculus with 16 samples.

Results

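The proteasome is the main protein-degrading machine of the cytosol and nucleus, and its genes were followed here in macrophages grown from mouse bone marrow. A gene was a member if its platform symbol began with Psma, Psmb, Psmc, Psmd, Psme, Psmf or Psmg, and the inducible subunits Psmb8, Psmb9 and Psmb10 were left out. This gave 47 of the 19937 named genes on the array, each represented by the probe set with the highest mean over all arrays. By their known roles 45 of them are proteasome subunits, chaperones, activators or inhibitors. The other 2 share only the prefix: Psmc3ip, a recombination factor, and Psme3ip1, named as an interaction partner of Psme3. Psme2b is a near copy of Psme2 with no probe set of its own.

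The study measured total RNA on 16 single-channel Affymetrix arrays, 4 in each of 4 groups: wild-type cells without stimulation, wild-type cells with LPS, NFAT5 knockout (KO) cells without stimulation and NFAT5 KO cells with LPS. All cells were on the 129sv background. LPS (lipopolysaccharide), from the outer membrane of Gram-negative bacteria, activates macrophages through Toll-like receptor 4, and NFAT5 is a transcription factor known for the response to hypertonic stress. The comparisons ask what LPS does to the proteasome genes in each genotype and whether loss of NFAT5 changes their level or their response. The sources used here do not give the LPS dose, the time of stimulation or the design of the knockout allele. They also do not say that the arrays of 1 group are separate mice or cultures. The p-values therefore reflect the spread of these arrays alone, and much of that spread could be technical.

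In a proteasome, a barrel called the 20S core cuts proteins inside a chamber of stacked rings: the outer alpha rings gate the entry and the inner beta rings carry the proteolytic sites. A 19S cap on the barrel recognises ubiquitin-tagged proteins, removes the ubiquitin and threads the unfolded chain into the core with a ring of ATPases. Other caps, such as the PA28 complexes and PA200, open the core without needing ubiquitin. In macrophages and other immune cells the peptides made by the proteasome feed MHC class I antigen presentation, and inflammatory signals can exchange the standard catalytic subunits for inducible ones.

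All 7 macrophage markers measured were above the median level of all genes in every group (group means from 8.98 to 13.69 on the log2 scale). Of 22 markers of other cell types, 3 were above that median in every group: Cd3e (7.15 to 7.38), Col1a1 (7.96 to 8.11) and Col1a2 (7.48 to 7.65). Their part in the results was not tested. Nfat5 averaged 9.39 in wild-type and 9.04 in KO cells without LPS, and 10.07 and 9.09 with LPS. The altered exons are not given, so this signal does not check the labels. Y-linked Kdm5d exceeded Xist in 6 of the 8 KO arrays and in 0 of the 8 wild-type arrays, so genotype and sex largely coincide. The exceptions were both KO arrays numbered 4, so the KO arrays of a treatment did not all come from the same mouse. In bulk RNA, fewer cells of a type and less RNA per cell cannot be told apart.

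LPS raised most proteasome genes in wild-type macrophages. Of the 47 members, 30 rose, 2 fell and 15 did not pass the test (limma over all genes, adjusted p under 0.05 by the Benjamini-Hochberg method). Over all genes tested, 14% rose and 16.8% fell. The median log2 change of the members was 0.35, against 0.06 for all genes. A log2 change of 1 is a doubling, so the typical rise was modest. Psma6 of the alpha ring, Psme2 of the PA28 activator and Psmd10, a chaperone of 19S assembly, rose most, 3.39-fold, 2.57-fold and 2.56-fold. In a separate fit of only the 10624 genes whose highest group mean lay above the all-gene median, with p-values adjusted over those genes alone, 23.2% of genes rose. That fit held 44 of the members and left out Psma8, Psmb11 and Psmc3ip. Of these 44, 30 rose (68.2%) and 3 fell. A gene could enter that fit through its LPS groups alone, as Psmg3 did. Of the 32 wild-type calls, 26 held under every alternative tried, and those of Psma7, Psmb2, Psmb11, Psmd4, Psmd9 and Psmg3 did not.

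In KO macrophages 31 of the 47 members rose with LPS, 0 fell and 16 did not pass the test. Over all genes 12% rose and 12.7% fell. The median log2 change of the members was 0.41, against 0.01 for all genes. In the separate fit of the 10624 brighter genes 22.5% rose, and of the 44 members in it 31 rose (70.5%) and 0 fell. Outside the fit of 10 arrays described at the end, the KO calls of Psmb2, Psmd1, Psmd2, Psmd4, Psmd8, Psmd13 and Psme4 were lost under at least 1 alternative. The rise was called in both genotypes for 28 members. It was called in wild type alone for Psmb11 and Psmg3, and in KO alone for Psmd8, Psmd13 and Psme4. These differences between genotypes were not called: for the difference in LPS response between genotypes, 0 of 47 members passed, against 1.29% of all genes. The wild-type and KO responses, which share no arrays, correlated across the 47 members with a Pearson r of 0.901, and across all 19937 genes with 0.9. Genes are not independent replicates, and these values are descriptions.

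**Figure D1:**
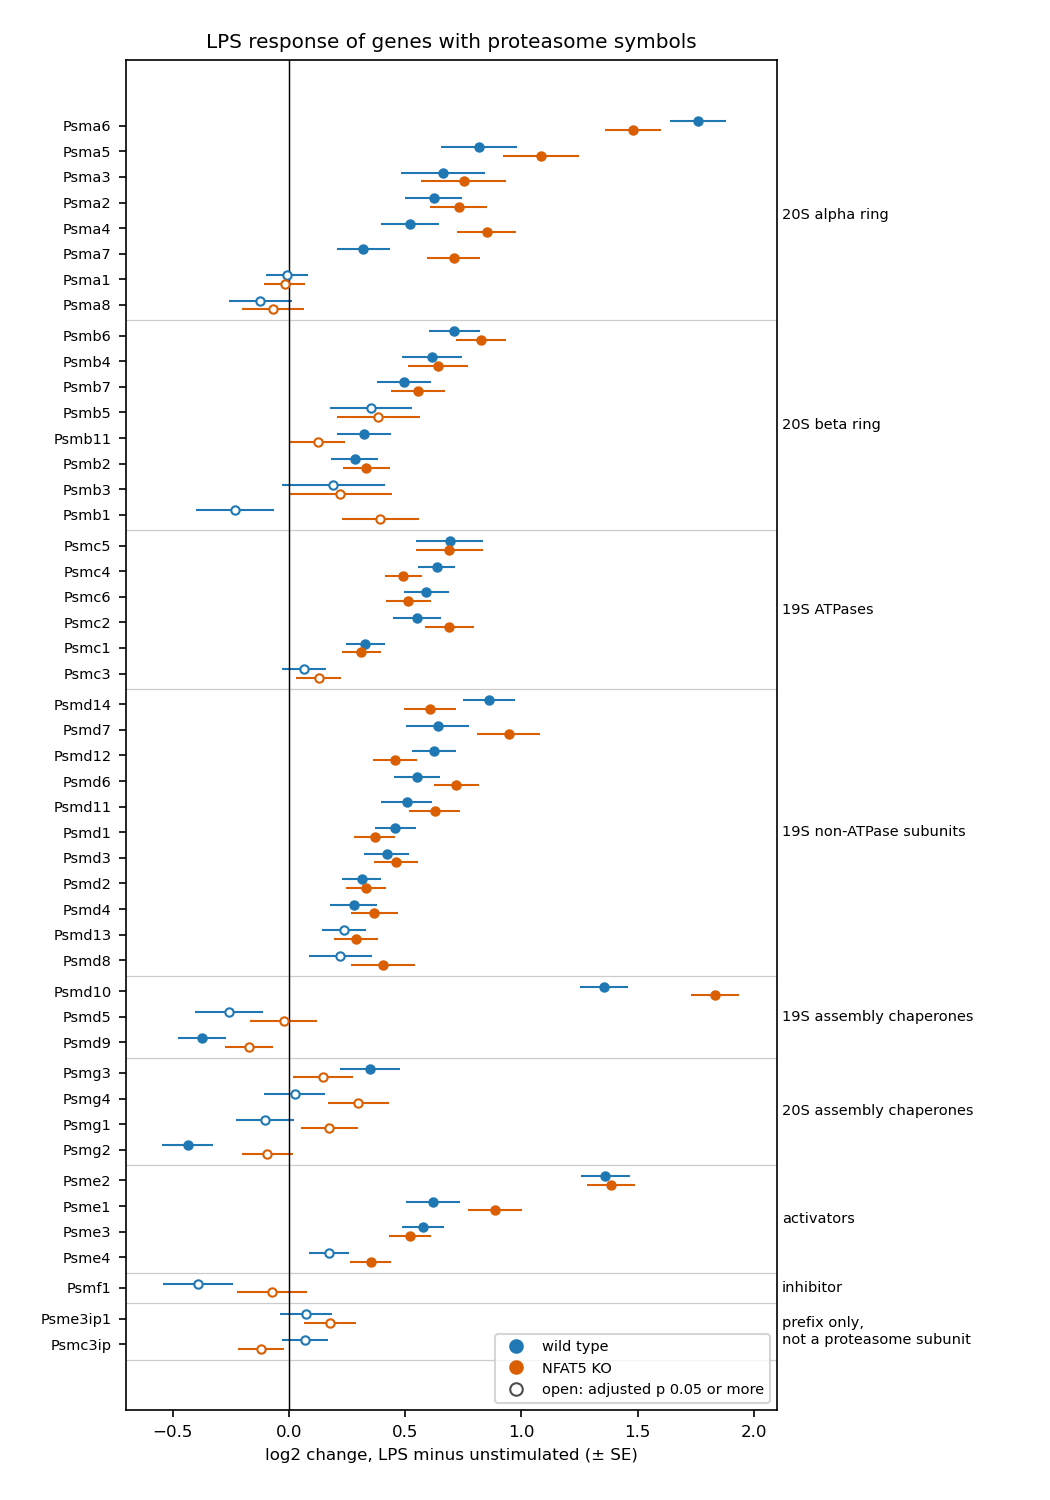
Log2 change with LPS (horizontal axis, ± SE) of the 47 members, grouped by role, in wild-type (blue) and NFAT5 KO cells (orange). Filled points passed the test. Psma6, Psmd10 and Psme2 lie above 1 in both genotypes, and the falls are found among the chaperones Psmg2 and Psmd9.

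The 6 promoter windows below show the members with the largest rises in both genotypes, Psma6, Psme2 and Psmd10, and the pair of catalytic subunits that carry a motif of the NRF1 type. Promoter windows of 250 bases before a RefSeq start (build GRCm38.p6) were found for 39 members. For 8 members no window was found and no motif was searched: Psma8, Psmb1, Psmb2, Psmb7, Psmc3, Psmd3, Psmd7 and Psmg2. Psmb7 is also a catalytic subunit, so its motifs are not known here. Both strands were searched for TGACNNNGC, a core of the element bound by NRF1 and NRF2, for CCAAT, the element of NF-Y, for GAAA repeated after any 2 bases, the core of the interferon-stimulated response element (ISRE), and for an NF-kB type motif (GGGA, any base, TT, any base, CC) chosen after the values were seen. Matches are printed in capitals, 5′ to 3′ on the strand of the gene. No matches of different motifs overlap in these windows. Psma6 has 2 windows in RefSeq, one at chr12:55383972-55384221 and the other at chr12:55398575-55398824, both on the plus strand. Psme2 has 2 overlapping windows on the minus strand, of which the one at chr14:55591102-55591351 is printed. Psmd10 lies on the minus strand at chrX:140956712-140956961, Psmb5 on the minus strand at chr14:54617996-54618245 and Psmb6 on the plus strand at chr11:70525107-70525356.
Psma6, the window that comes first: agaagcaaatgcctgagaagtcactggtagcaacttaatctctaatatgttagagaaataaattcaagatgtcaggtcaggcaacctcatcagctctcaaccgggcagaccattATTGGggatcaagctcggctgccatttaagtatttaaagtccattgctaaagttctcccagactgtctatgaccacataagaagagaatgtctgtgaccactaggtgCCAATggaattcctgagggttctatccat
Psma6, the other window: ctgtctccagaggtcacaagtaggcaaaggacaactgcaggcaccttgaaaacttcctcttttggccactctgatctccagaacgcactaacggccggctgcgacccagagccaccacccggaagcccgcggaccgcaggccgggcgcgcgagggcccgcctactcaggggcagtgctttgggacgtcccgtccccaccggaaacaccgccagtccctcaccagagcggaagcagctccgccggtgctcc
Psme2: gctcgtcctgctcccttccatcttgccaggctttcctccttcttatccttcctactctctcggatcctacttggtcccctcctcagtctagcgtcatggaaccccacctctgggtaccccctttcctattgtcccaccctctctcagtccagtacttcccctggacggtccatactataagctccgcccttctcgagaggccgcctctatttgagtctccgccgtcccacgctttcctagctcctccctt
Psmd10: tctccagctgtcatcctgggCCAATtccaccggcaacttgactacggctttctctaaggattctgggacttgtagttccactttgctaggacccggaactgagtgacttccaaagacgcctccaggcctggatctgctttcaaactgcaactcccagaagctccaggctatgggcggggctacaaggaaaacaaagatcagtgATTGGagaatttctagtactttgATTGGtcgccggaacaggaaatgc
Psmb5: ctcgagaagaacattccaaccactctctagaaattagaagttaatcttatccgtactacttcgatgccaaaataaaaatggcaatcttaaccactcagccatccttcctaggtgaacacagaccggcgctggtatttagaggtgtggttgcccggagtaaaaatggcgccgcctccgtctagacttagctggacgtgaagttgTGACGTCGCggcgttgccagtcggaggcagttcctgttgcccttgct
Psmb6: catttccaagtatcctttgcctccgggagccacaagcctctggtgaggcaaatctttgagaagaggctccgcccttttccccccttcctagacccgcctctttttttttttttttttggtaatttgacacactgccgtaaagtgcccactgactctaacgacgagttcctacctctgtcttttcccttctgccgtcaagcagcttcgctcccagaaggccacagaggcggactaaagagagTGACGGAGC

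Psmd10 held 3 CCAAT matches and the first Psma6 window 2, while the other Psma6 window and both Psme2 windows held none of the 4 motifs. CCAAT was present in 15 of the 39 members with a window (38.5%), against 37.5% of the 27025 genes with a window. TGACNNNGC was present in 5 of 39 (12.8%), against 11.5% of all: Psmb5, Psmb6, Psmc6, Psmd9 and Psmd12. The ISRE core was present in Psmb3, Psmd4 and Psmd9, that is 7.69% of members against 3.46% of all genes. The NF-kB type motif was found in 0 of 39, against 1.13% of all. For CCAAT and TGACNNNGC the share of members was near that of all genes. A match is a description of letters in a window, not a binding site.

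The alpha ring forms the gate of the 20S core. Of its 8 genes, 6 rose with LPS in wild type and the same 6 in KO cells: Psma2, Psma3, Psma4, Psma5, Psma6 and Psma7. The exceptions were Psma1, with log2 changes of -0.01 in wild type and -0.02 in KO, and Psma8, the testis form, which was dim (mean level 5.59). Psma6 had levels of 10.50, 10.58, 10.44 and 10.36 in arrays 1 to 4 of unstimulated wild-type cells and 12.43, 12.45, 12.03 and 12.01 with LPS. In KO cells the levels of Psma6 were 10.48, 10.51, 10.37 and 10.15 without LPS and 12.02, 11.99, 11.76 and 11.67 with it. Every LPS array lay above every unstimulated array in both genotypes, and with LPS the arrays numbered 1 and 2 were the highest in each genotype. The log2 change of Psma6 was 1.76 ± 0.121 (SE, n = 4 against 4) in wild type and 1.48 ± 0.121 in KO, with limma adjusted p = 1.83e-09 and 2.4e-08.

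Psma5, another subunit of the gate ring, had levels of 8.55, 8.66, 8.35 and 7.996 without LPS and 9.48, 9.37, 9.11 and 8.88 with LPS in wild-type arrays 1 to 4. In KO cells it had 8.30, 8.43, 8.28 and 7.87 without and 9.61, 9.25, 9.29 and 9.08 with LPS. The array numbered 4 was the lowest of every group, and the LPS and unstimulated groups did not overlap. The log2 change of Psma5 was 0.82 ± 0.164 in wild type (limma adjusted p = 0.000617) and 1.09 ± 0.164 in KO (adjusted p = 4.47e-05). The remaining alpha genes that rose had log2 changes from 0.32 (Psma7) to 0.66 (Psma3) in wild type and from 0.71 (Psma7) to 0.85 (Psma4) in KO. Psma3 and Psma5 have further, dimmer probe sets, and each of these gave a rise too, by 0.72 to 0.77 in wild type and by 0.80 to 1.08 in KO.

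**Figure D2:**
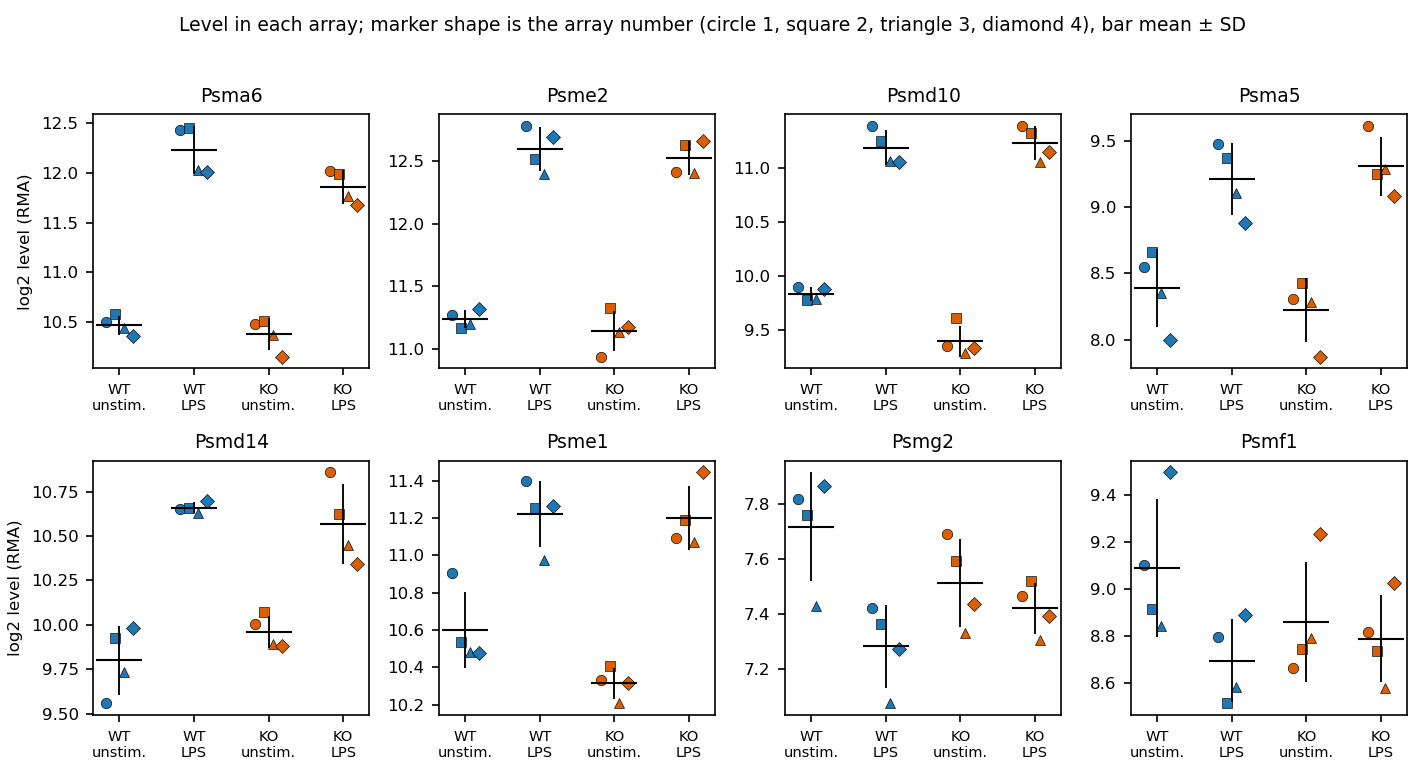
Log2 level (RMA, vertical axis) of 8 members in each of the 16 arrays by group, with marker shape for the array number and a bar for mean ± SD. For Psma6, Psme2, Psmd10, Psma5, Psmd14 and Psme1 every LPS array lies above every unstimulated array of the same genotype, and for Psmg2 this order is turned in wild type.

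The beta ring holds the proteolytic sites. Of its 8 genes 5 rose in wild type (Psmb2, Psmb4, Psmb6, Psmb7 and Psmb11) and 4 in KO (Psmb2, Psmb4, Psmb6 and Psmb7). Psmb11, the thymus-specific subunit, was dim (mean level 6.69), rose by 0.32 in wild type (limma adjusted p = 0.0447) and changed by 0.12 in KO (adjusted p = 0.563). Psmb6, the caspase-like catalytic subunit, had levels of 9.95, 9.75, 10.16 and 10.24 in unstimulated and 10.86, 10.58, 10.63 and 10.88 in LPS arrays 1 to 4 of wild-type cells. In KO cells the levels of Psmb6 were 10.02, 9.87, 10.10 and 10.13 without and 10.87, 10.79, 10.83 and 10.93 with LPS. The groups did not overlap in either genotype. Psmb6 rose by 0.71 ± 0.108 in wild type and 0.83 ± 0.108 in KO (limma adjusted p = 3.78e-05 and 9.1e-06).

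Psmb7, the trypsin-like subunit, had 9.81, 9.93, 9.71 and 9.86 without and 10.50, 10.52, 10.17 and 10.11 with LPS in wild type. In KO cells it had 9.84, 9.84, 9.65 and 9.65 without and 10.58, 10.23, 10.08 and 10.31 with LPS. Again no unstimulated array reached the LPS arrays of its genotype. Psmb7 rose by 0.50 ± 0.116 in wild type and 0.56 ± 0.116 in KO (limma adjusted p = 0.00246 and 0.00116).

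Psmb5, the chymotrypsin-like subunit and the target of proteasome inhibitor drugs, did not pass the test in either genotype. In a fit with a term for the array number (a block) Psmb5 was called higher in both (limma adjusted p = 0.00195 in wild type and 0.00118 in KO). Its levels in wild type were 10.83, 10.94, 10.78 and 11.46 without LPS and 11.31, 11.26, 11.11 and 11.75 with LPS, and in KO 10.90, 10.90, 10.76 and 11.48 without and 11.42, 11.36, 11.16 and 11.66 with LPS. The array numbered 4 was the highest of each group and the groups overlapped, while within each number the LPS array was the higher in both genotypes. The log2 change was 0.35 ± 0.177 in wild type (limma adjusted p = 0.15) and 0.39 ± 0.177 in KO (adjusted p = 0.139). Without the 4 arrays numbered 4 it was 0.38 (adjusted p = 0.00805) and 0.46 (adjusted p = 0.00267). Leaving out unstimulated array 4 alone gave 0.51 in wild type (adjusted p = 0.0331) and 0.54 in KO (adjusted p = 0.0246). Leaving out LPS array 4 alone gave 0.22 (adjusted p = 0.408) and 0.30 (adjusted p = 0.327), and quantile normalisation 0.22 (adjusted p = 0.359) and 0.19 (adjusted p = 0.473). Psmb1, a non-catalytic beta subunit, changed by -0.23 in wild type (adjusted p = 0.333) and by 0.39 in KO (adjusted p = 0.104), and the difference between these responses, 0.63, had an adjusted p of 0.296. Psmb3, measured by a pair of probe sets, changed by 0.19 in wild type (adjusted p = 0.566) and 0.22 in KO (adjusted p = 0.587).

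The inducible subunits replace these catalytic subunits one for one: Psmb8 takes the place of Psmb5, Psmb9 of Psmb6 and Psmb10 of Psmb7. In wild type Psmb8 rose by 0.82 ± 0.135 and Psmb10 by 1.09 ± 0.157 (limma adjusted p = 9.01e-05 and 2.09e-05), while Psmb9 changed by 0.37 ± 0.139 (adjusted p = 0.0502). Without unstimulated wild-type array 1 the change of Psmb9 was 0.43 (adjusted p = 0.0362), and without wild-type LPS array 3 it was 0.49 (adjusted p = 0.00984). Without any of the other 6 wild-type arrays it was 0.30 to 0.37 and did not pass (adjusted p = 0.0853 to 0.151). With the array number as a block Psmb9 was called higher in wild type (limma adjusted p = 0.0106), as with a term for sex (0.0243). It also passed, near the threshold, with quantile normalisation (0.049), in only the 8 arrays compared (0.0467) and with the mean of probe sets (0.0496). It did not pass with arrays centred on their medians (0.06), with another variance prior (0.0508) or without the arrays numbered 4 (0.13). In KO all of them rose, Psmb8 by 1.37 ± 0.135, Psmb9 by 0.98 ± 0.139 and Psmb10 by 1.52 ± 0.157 (adjusted p at most 2.09e-05). In that order, the differences in response between genotypes were not called (limma adjusted p = 0.242, 0.176 and 0.56). KO minus wild type was -0.51, -0.47 and -0.41 without LPS (adjusted p = 0.0957, 0.165 and 0.437). With LPS it was 0.03, 0.14 and 0.01. To ask whether an inducible subunit changed more than the subunit it replaces, the difference between them was taken within each array. With LPS the difference Psmb10 minus Psmb7 was greater by 0.59 in wild type and 0.96 in KO, and Psmb8 minus Psmb5 by 0.47 and 0.98. For Psmb9 minus Psmb6 the shifts were -0.34 and 0.16. The groups did not overlap for Psmb10 in both genotypes and for Psmb8 in KO (exact two-sided permutation p = 0.0286, the smallest that 4 against 4 allows). Adjusted over the 12 comparisons made, these became 0.114, so 0 of 12 passed. With that smallest p, a few fully separated comparisons among 12 cannot pass, so this result does not show that the subunits changed equally. The 6 genotype comparisons of these differences had exact p from 0.0857 to 0.971 before adjustment.

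**Figure D3:**
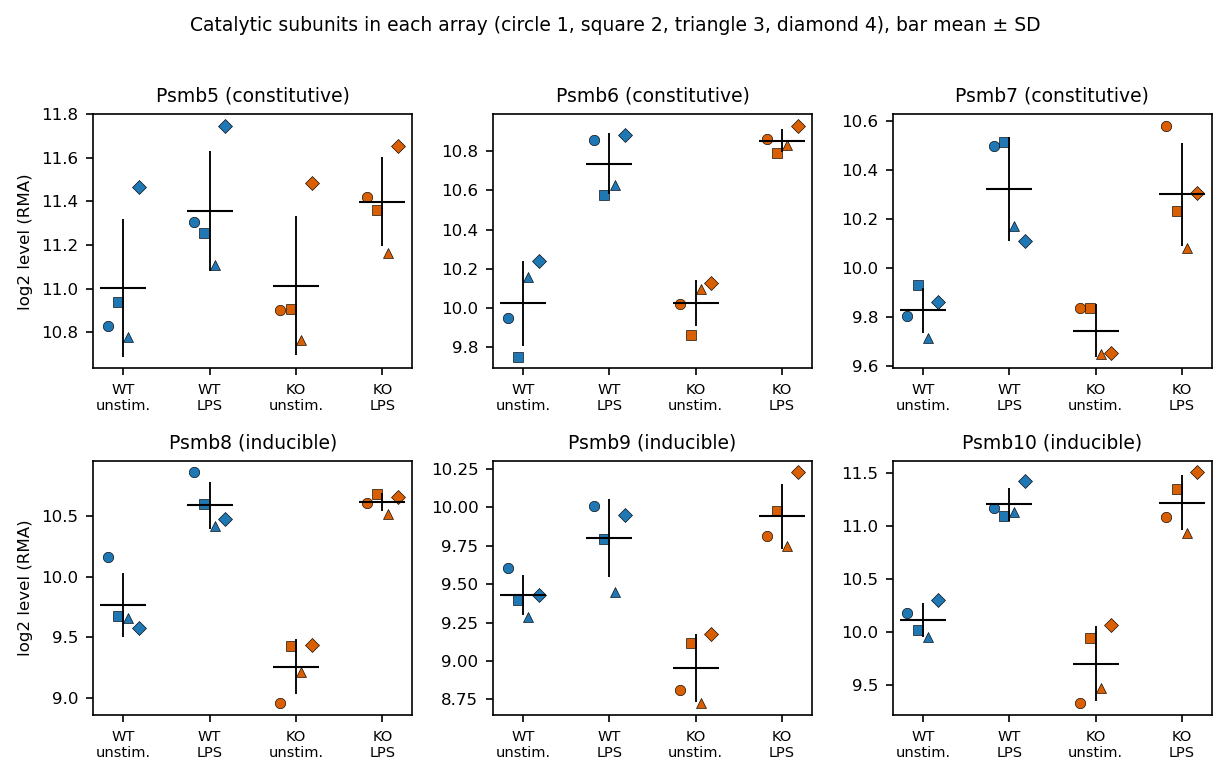
Log2 level (RMA) of the constitutive catalytic subunits (top row) and the inducible subunits that replace them (bottom row) in each array, with mean ± SD. Psmb6, Psmb7, Psmb8 and Psmb10 separate LPS from unstimulated arrays in both genotypes, Psmb9 only in KO, and Psmb5 overlaps, with the array numbered 4 the highest of every group.

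The 6 ATPases of the 19S base unfold the substrate. In both genotypes 5 of 6 rose: Psmc1, Psmc2, Psmc4, Psmc5 and Psmc6, by 0.33 to 0.69 in wild type and by 0.31 to 0.69 in KO. Psmc5 rose by 0.69 in each genotype (limma adjusted p = 0.000859 and 0.00112). Psmc3 did not pass, with changes of 0.07 and 0.13 (adjusted p = 0.655 and 0.424). A dimmer probe set of Psmc1 gave similar changes, 0.34 and 0.31, that did not pass the test (adjusted p = 0.187 and 0.287 in the fit of all probe sets).

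The non-ATPase subunits of the 19S cap include the scaffolds Psmd1 and Psmd2, the ubiquitin receptor Psmd4 and the deubiquitinase Psmd14. Of these 11 genes 9 rose in wild type and 11 in KO, and every one had a positive change in both. Psmd14, which removes ubiquitin chains from the substrate, had levels of 9.56, 9.93, 9.73 and 9.98 without LPS and 10.65, 10.66, 10.63 and 10.70 with LPS in wild type. In KO its levels were 10.002, 10.07, 9.89 and 9.88 without and 10.86, 10.62, 10.45 and 10.35 with LPS. The LPS arrays were higher throughout, and in wild type they lay close together. Psmd14 rose by 0.86 ± 0.111 in wild type (limma adjusted p = 6.04e-06) and 0.61 ± 0.111 in KO (adjusted p = 0.000357).

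Psmd7, the partner of Psmd14 in the cap, had 9.02, 9.002, 8.76 and 9.15 without and 9.77, 9.68, 9.35 and 9.70 with LPS in wild type. In KO it had 8.96, 8.97, 8.71 and 8.41 without and 9.88, 9.52, 9.58 and 9.85 with LPS. No unstimulated array of either genotype reached its LPS group. Psmd7 rose by 0.64 ± 0.135 and 0.95 ± 0.135 (limma adjusted p = 0.00102 and 2.45e-05).

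Psmd4, the ubiquitin receptor, showed one of the smallest called rises. Its levels were 8.83, 8.90, 8.90 and 8.99 without and 9.37, 9.18, 9.004 and 9.18 with LPS in wild type, and 8.70, 8.77, 8.97 and 8.73 without and 9.24, 9.09, 8.96 and 9.34 with LPS in KO. The wild-type groups lay just apart, and in KO the highest unstimulated array, number 3, lay above the LPS array of that number. Psmd4 rose by 0.28 ± 0.1 in wild type (limma adjusted p = 0.0419) and 0.37 ± 0.1 in KO (adjusted p = 0.00986). Leaving out any of the wild-type arrays except unstimulated 4 and LPS 3 ended the wild-type call (adjusted p = 0.0704 to 0.143), and without the arrays numbered 4 the KO change was 0.29 (adjusted p = 0.0862). The other lid and base members Psmd1, Psmd2, Psmd3, Psmd6, Psmd11 and Psmd12 rose by 0.31 to 0.62 in wild type and 0.33 to 0.72 in KO. Psmd8 and Psmd13 changed by 0.22 and 0.24 in wild type (adjusted p = 0.251 and 0.0686) and rose by 0.41 and 0.29 in KO (adjusted p = 0.036 and 0.0298).

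The chaperones that assemble the particle did not move as a group. Of the 3 chaperones of the 19S base, Psmd10 rose in both genotypes, Psmd9 fell in wild type, and Psmd5 did not pass the test (-0.26 in wild type and -0.02 in KO). Psmd10, also known as gankyrin, had 9.90, 9.78, 9.79 and 9.88 without LPS and 11.39, 11.25, 11.07 and 11.05 with LPS in wild type. In KO it had 9.35, 9.61, 9.29 and 9.33 without and 11.39, 11.33, 11.05 and 11.15 with LPS. The LPS arrays lay over 1 unit above the unstimulated ones in both genotypes. Psmd10 rose by 1.35 ± 0.102 in wild type and 1.83 ± 0.102 in KO (limma adjusted p = 6.65e-09 and 1.94e-10), the largest rise of any member in KO. Psmd9 had 7.55, 7.71, 7.71 and 7.70 without and 7.46, 7.18, 7.33 and 7.21 with LPS in wild type, every LPS array below every unstimulated one, and 7.27, 7.70, 7.79 and 7.65 without and 7.40, 7.47, 7.40 and 7.47 with LPS in KO, where the groups overlapped. It fell by 0.37 ± 0.104 in wild type (limma adjusted p = 0.00932), and in KO the change was -0.17 ± 0.104 (adjusted p = 0.304). Without the arrays numbered 4 the wild-type change of Psmd9 was -0.33 (adjusted p = 0.0669). Without unstimulated KO array 1, the low one, the KO change was -0.28 (adjusted p = 0.0258).

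The 4 chaperones of the 20S core work as the pairs Psmg1 with Psmg2 and Psmg3 with Psmg4. Psmg2 fell in wild type and Psmg3 rose there, by 0.35 (limma adjusted p = 0.0459), and in KO 0 of the 4 passed. Psmg2 had 7.82, 7.76, 7.43 and 7.86 without and 7.42, 7.36, 7.08 and 7.27 with LPS in wild type, and 7.69, 7.59, 7.33 and 7.44 without and 7.47, 7.52, 7.31 and 7.39 with LPS in KO. In wild type unstimulated array 3 was low and lay just above the highest LPS array, and in KO the groups overlapped. Psmg2 fell by 0.43 ± 0.111 in wild type (adjusted p = 0.00488), and its change in KO was -0.09 ± 0.111 (adjusted p = 0.675). The difference between these responses, 0.34, had an adjusted p of 0.457. Psmg1 changed by -0.10 in wild type and 0.17 in KO, Psmg4 by 0.03 and 0.30, and neither passed.

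Among the activators, Psme1 and Psme2 form the PA28 ring that is known as an interferon-gamma target, Psme3 forms a nuclear ring of its own, and Psme4 encodes PA200. Of these 4 genes 3 rose in wild type and all 4 in KO. Psme2 had levels of 11.27, 11.17, 11.20 and 11.32 without and 12.79, 12.52, 12.40 and 12.70 with LPS in wild type. In KO its levels were 10.94, 11.33, 11.14 and 11.18 without and 12.41, 12.64, 12.41 and 12.66 with LPS. Every LPS array was over 1 unit above every unstimulated array of its genotype. Psme2 rose by 1.36 ± 0.105 in wild type and 1.39 ± 0.105 in KO (limma adjusted p = 8.35e-09 and 9.3e-09). A further probe set assigned to both Psme2 and its near copy Psme2b rose less, by 0.80 and 1.06, and signal from the 2 genes cannot be told apart on it.

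Psme1 had 10.91, 10.54, 10.49 and 10.48 without and 11.40, 11.25, 10.97 and 11.26 with LPS in wild type, and 10.33, 10.41, 10.21 and 10.32 without and 11.09, 11.19, 11.07 and 11.44 with LPS in KO. Unstimulated wild-type array 1 was the highest of its group and still lay below all LPS arrays. Psme1 rose by 0.62 ± 0.116 and 0.89 ± 0.116 (limma adjusted p = 0.000333 and 9.05e-06). Psme3 had 10.42, 10.36, 10.17 and 10.45 without and 11.04, 10.93, 10.89 and 10.85 with LPS in wild type, and 10.18, 10.43, 10.31 and 10.25 without and 10.96, 10.84, 10.78 and 10.68 with LPS in KO. It rose by 0.58 ± 0.0903 and 0.52 ± 0.0903 (adjusted p = 5.18e-05 and 0.000197), with no overlap. Psme4 had 9.87, 10.14, 10.13 and 9.98 without and 10.15, 10.12, 10.35 and 10.20 with LPS in wild type, where the groups overlapped, and 10.07, 10.09, 10.07 and 9.86 without and 10.44, 10.34, 10.38 and 10.34 with LPS in KO, where they did not. Its change was 0.17 ± 0.0873 in wild type (adjusted p = 0.153) and it rose by 0.35 ± 0.0873 in KO (adjusted p = 0.00493). The difference between these responses was 0.18 (adjusted p = 0.722). With quantile normalisation the KO change of Psme4 was 0.22 (adjusted p = 0.114).

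Psmf1, the inhibitor PI31, had 9.10, 8.91, 8.84 and 9.49 without and 8.80, 8.51, 8.58 and 8.89 with LPS in wild type, and 8.66, 8.75, 8.79 and 9.23 without and 8.82, 8.74, 8.58 and 9.02 with LPS in KO. The array numbered 4 was the highest of each group, and the groups overlapped. The log2 change was -0.39 ± 0.15 in wild type (limma adjusted p = 0.0571) and -0.07 ± 0.15 in KO (adjusted p = 0.835). Without the arrays numbered 4 it was -0.32 in wild type (adjusted p = 0.0328), and without unstimulated array 2, unstimulated array 3 or LPS array 4 alone it was -0.45 to -0.47 (adjusted p = 0.0333 to 0.0485). Without unstimulated array 4 alone it was -0.26 (adjusted p = 0.222), and without any of the other wild-type arrays it was -0.33 to -0.43 (adjusted p = 0.0678 to 0.152). The genes that share only the prefix did not pass the test: Psmc3ip changed by 0.07 and -0.12, and Psme3ip1 by 0.08 and 0.18.

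Partners of the proteasome outside the prefix moved in both directions. Of 12 partner genes measured, 3 rose and 3 fell in wild type, and 4 rose and 2 fell in KO, with median log2 changes of 0.26 and 0.21. Pomp, the maturation protein of the core, changed by 0.23 ± 0.108 in wild type (limma adjusted p = 0.126) and rose by 0.55 ± 0.108 in KO (adjusted p = 0.000643). Usp14, a deubiquitinase of the cap, rose by 0.33 ± 0.115 in wild type (adjusted p = 0.0368), and its change in KO was 0.21 ± 0.115 (adjusted p = 0.24). Without any of the wild-type arrays unstimulated 1, unstimulated 3, LPS 1 or LPS 2 the wild-type call of Usp14 was lost (adjusted p = 0.0706 to 0.112). The difference in response between genotypes was not called for Pomp (0.33, limma adjusted p = 0.48) or for Usp14 (-0.12, adjusted p = 0.892). Nfe2l1 encodes NRF1, a transcription factor known to induce proteasome genes when degradation is inhibited. It rose by 0.59 ± 0.102 in wild type and 0.75 ± 0.102 in KO (adjusted p = 0.000144 and 1.3e-05). Of 4 genes of the NRF1 axis 2 rose in each genotype. Of 5 ubiquitin, activating-enzyme and shuttle genes 3 rose and 1 fell in each.

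Few differences between NFAT5 KO and wild-type cells passed the test, among the proteasome genes and among all genes. Without LPS, 1 of 47 members, Psmd10, was lower in KO and 0 were higher, while 0.863% of all genes were lower and 0.14% higher. The median log2 difference of the members was -0.09, against 0.00 for all genes, and 34 of 47 differences were negative. With quantile normalisation that median was -0.02, against 0.01 for all genes, and with the sex term it was -0.06, against 0.00. The sex term rests on KO array 4 against KO arrays 1 to 3, and without the block it also takes up any effect of the array number. Psmd10 was 1.35-fold lower in unstimulated KO cells, with a log2 difference of -0.44 ± 0.102 (SE, n = 4 against 4, limma adjusted p = 0.0489). The 4 KO arrays, given above, all lay below the 4 wild-type arrays. Psmd10 lies on the X chromosome, and 3 of these KO arrays carried Y-linked transcripts. The fourth, KO array 4, had a level of 9.33, against 9.78 in the lowest wild-type array. It is a single array, so it does not separate sex from genotype. With a term for sex the difference was -0.51 (adjusted p = 0.061), and without the arrays numbered 4 it was -0.40 (adjusted p = 0.204). Leaving out any of these 8 arrays except KO array 2 also ended the call (adjusted p = 0.0851 to 0.152), as did fitting only the 8 arrays (0.12) or quantile normalisation (0.122). With the LPS arrays counted too, 12 of the 16 arrays ended the call when left out singly. At an unadjusted p under 0.05, Psma7 (-0.30), Psmb1 (-0.39) and Psme1 (-0.29) also had lower levels, but their adjusted p was 0.428 to 0.55.

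With LPS, 0 of 47 members differed between the genotypes in the limma fit without a block, against 3.05% of all genes. In that fit 1 had an unadjusted p under 0.05. That was Psma6, whose log2 difference was -0.37 ± 0.121 (adjusted p = 0.132). With the array number as a block, which pairs the genotypes here, it was called lower in KO (adjusted p = 0.0112), and with a term for sex the difference was -0.58 (adjusted p = 0.0338). The sex term rests on KO array 4 against KO arrays 1 to 3. Array 4 was also the lowest of the wild-type LPS arrays for Psma6. Without the block, the sex term therefore also takes up any effect of the array number. With the sex term and the block together Psma6 was not called. The KO array was the lower in all 4 same-numbered pairs, and the groups overlapped only in KO array 1 (12.02) against wild-type array 4 (12.01). The median difference of the members was 0.01, against -0.01 for all genes. The 95% intervals of the genotype difference came from the fit without a block. They lay within 0.5 of 0 on the log2 scale for 44 of 47 members with LPS and for 37 of 47 without. Psmd10, lower without LPS, differed by 0.04 ± 0.102 with LPS (adjusted p = 0.998). Its rise was larger in KO by 0.48 ± 0.145, which did not pass (adjusted p = 0.141).

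**Figure D4:**
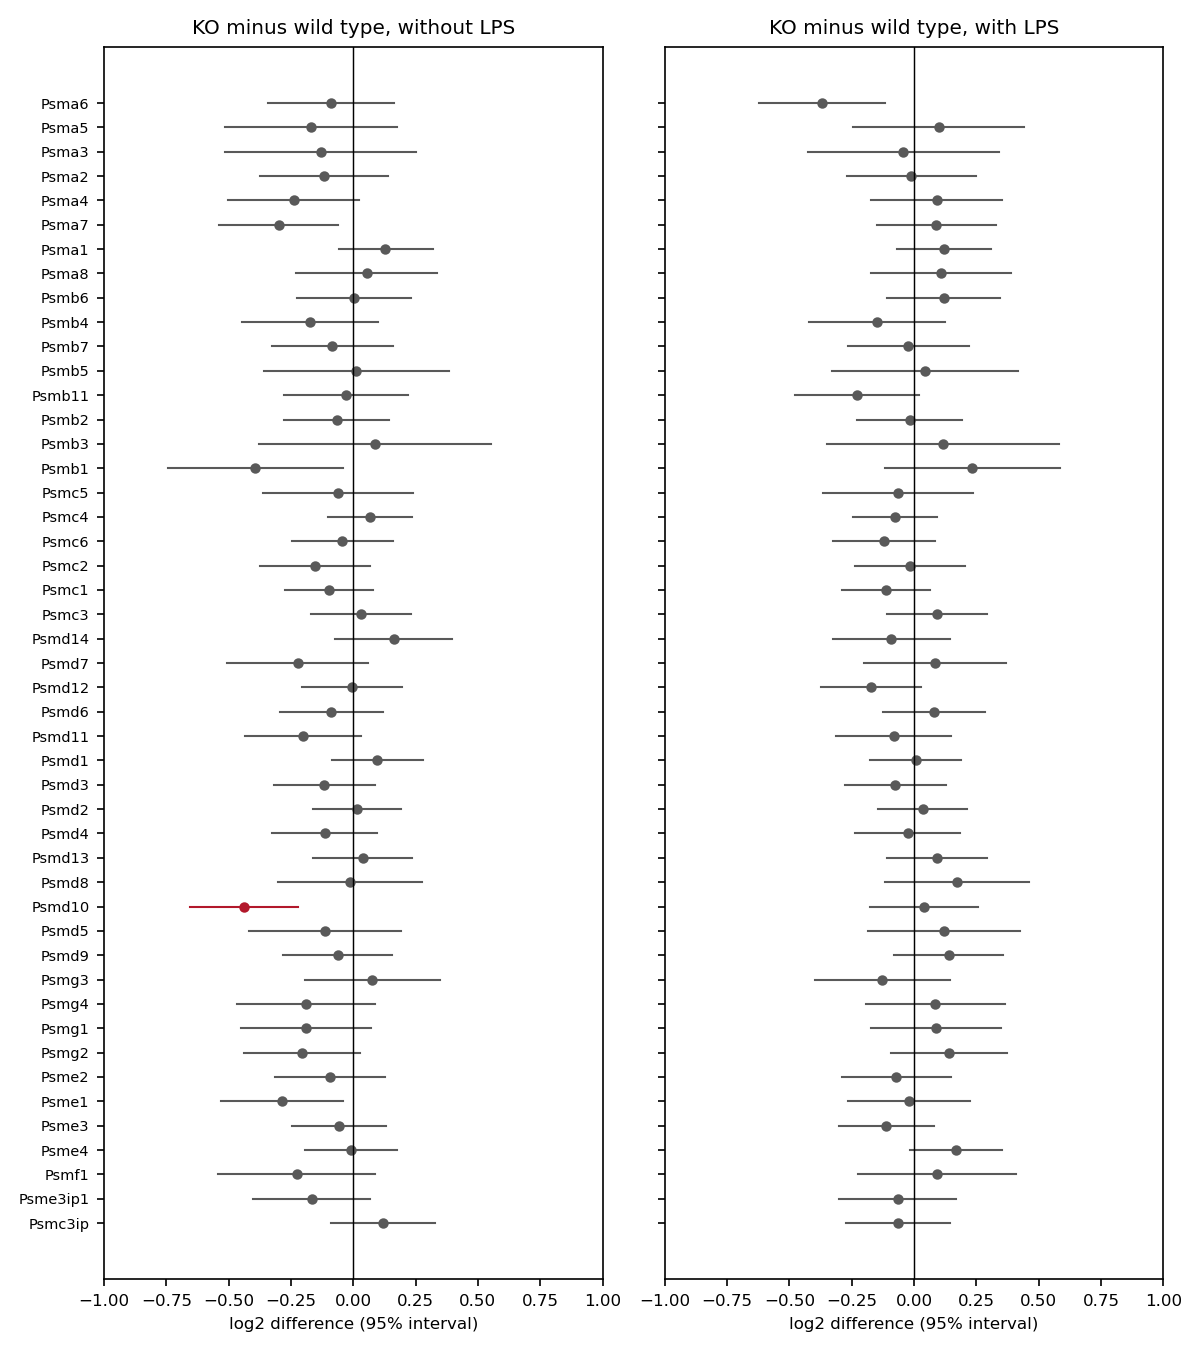
Log2 difference KO minus wild type with its 95% interval for the 47 members, without LPS (left) and with LPS (right). In this fit, which has no block, Psmd10 without LPS, in red, is the only difference that passed the test. Of the 47 intervals with LPS, 44 lie within 0.5 of 0.

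In some arrays most members deviated to the same side of their group mean. In LPS array 1, 40 of 47 members lay above the group mean in wild type and 38 in KO, with median deviations of 0.14 and 0.08. In LPS array 3, 8 and 7 of 47 lay above it, with median deviations of -0.12 and -0.10. The median deviation of all genes in these 4 arrays was between -0.02 and 0.02. In LPS arrays 2 and 4 of both genotypes, 19 to 25 of 47 members lay above the group mean. Without LPS, array 1 had 21 in wild type and 16 in KO above it, and array 3 had 9 and 26. Without the 4 arrays numbered 4, which stood apart for Psmb5, Psma5 and Psmf1, 30 members rose and 2 fell in wild type and 31 rose in KO. In the 10 arrays with Xist above Kdm5d, which leave 1 KO array per treatment whose spread is assumed to be that of the other groups, 28 rose and 3 fell in wild type and 12 rose in KO.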

How the data were processed

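The deposited log2 values were made by the authors with RMA (robust multi-array average), per the submitters' processing notes, which give no version. RMA brings all arrays to one distribution, so a change shared by most genes is removed, and it compresses differences of dim genes. Array medians were 6.76 to 6.86. The number of arrays limits the precision. Of 34760 probe sets, 21640 were paired with 1 gene symbol by GEO's platform annotation, 1321 with several and 11799 with none listed. The brightest probe set stood for each gene.

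All 19937 genes were fitted without a filter with limma 3.58.1 (lmFit and eBayes, R 4.3.3) as 4 group means with 12 residual degrees of freedom, with Benjamini-Hochberg adjustment over all genes and a threshold of 0.05. Differences between catalytic subunits were tested with exact two-sided permutation tests (scipy 1.17.1). In data simulated on the wild-type LPS comparison, 19737 of the 19937 genes were left unchanged. Of the changes added, 42% of those of 0.5 (log2) and 92% of those of 1 were recovered. In the measured comparison 14% of genes rose and 16.8% fell. With far fewer changed genes the adjustment was stricter in the simulation, so these shares do not give the recovery in the measured comparison. For the genotype comparison without LPS, with as many genes left unchanged, the shares were 47% and 94%.

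The array numbers met the rule for pairs between genotypes. Deviations of same-numbered arrays from their group means correlated by 0.16 to 0.442 without LPS and 0.186 to 0.518 with LPS. Between treatments these correlations were 0.045 for number 1 and 0.248 to 0.429 for the other numbers in wild type, and -0.06 and 0.138 to 0.558 in KO. Pairing was accepted only where every number exceeded 0.1. Between treatments number 1 did not, although numbers 2 to 4 deviated together. The main fit left the block out in every comparison, so the accepted pairs between genotypes entered only as an alternative.

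The members, gene lists and tests were chosen with earlier results of these data known. Array values and full statistics were given for members called in a genotype contrast, the 5 largest called rises and falls of each LPS contrast, and Psmb5, Psmb6, Psmb7, Psme1, Psme2, Psme3, Psme4, Psmf1 and Psmd4. Promoters came from RefSeq (GRCm38.p6). Alternatives covered the block, the arrays fitted, scaling, a filter on dim genes, probe sets, the variance prior, sex, the arrays numbered 4 and each array left out. The fits of the 10 arrays with Xist above Kdm5d and of sex with the block were added after seeing the data.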

Additional observations from a re-analysis of the deposited data

Results flagged for a closer look

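Of 88 groups of 4 arrays examined, 4 held an array far from the rest of its group, where chance gives about 1 in 20. Unstimulated wild-type array 1 was low for Psmd9, the 19S chaperone, at 7.553 against 7.697 to 7.71 in the other arrays. The same array was high for Psme1 of the PA28 activator, at 10.905 against 10.479 to 10.537, and for the inducible subunit Psmb8, at 10.163 against 9.58 to 9.675. Unstimulated KO array 4 was low for Psme4, the PA200 activator, at 9.863 against 10.066 to 10.09.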

How the results depend on the processing

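The number of members called with LPS was 29 to 35 in wild type over the alternatives that keep all arrays of a group or leave out those numbered 4 or those with Kdm5d above Xist, and 27 to 32 with single arrays left out, against 32. In KO it was 25 to 34, and 29 to 33 with single arrays left out, against 31, except that 12 were called in the 10 arrays with Xist above Kdm5d. Without LPS the single genotype call, Psmd10, became 0 calls in the fit of only the 8 arrays compared, in that fit with the replicate block, with quantile normalisation, with the sex term, without the arrays numbered 4, in the 10 arrays and with the sex term and block together. It ranged from 0 to 1 with single arrays left out. With LPS the 0 genotype calls became 1, Psma6, with the replicate block, in the 8 arrays with the block and with the sex term, and stayed 0 with each array left out. The cause of these shifts was not tested. With the replicate block 35 members were called in wild type and 34 in KO with LPS. The block added Psmb5 in both genotypes (adjusted p = 0.00195 in wild type and 0.00118 in KO), Psmd13 and Psmf1 in wild type and Psmb1 and Psmg4 in KO, and ended no call. The difference in response gave 0 calls under every alternative. The median log2 change of the members with LPS exceeded that of all genes by 0.26 to 0.469 under all alternatives. Single arrays ended the wild-type calls of Psma7 (5 of 16 arrays), Psmb2 (6), Psmd4 (8), Psmb11 (10) and Psmg3 (10), and the KO calls of Psmb2 (2), Psmd13 (4) and Psmd8 (6). The genotype call of Psmd10 without LPS was ended by 12 of 16. The within-array differences between catalytic subunits moved by less than 1 SD between arrays, but with single arrays left out their sizes varied. In wild type with LPS Psmb8 minus Psmb5 ranged from 0.25 to 0.66, and in KO Psmb9 minus Psmb6 ranged from 0.06 to 0.27. Without LPS the genotype difference of Psmb10 minus Psmb7 ranged from -0.48 to -0.17. The tests of same-numbered pairs (replicate block) could not go below 0.125. No named change that passed the test turned its direction. Intervals of the genotype difference reached from -0.745 to 0.551 without LPS.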
